A study of Mus musculus with 4 samples.

Results

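Wnt3, Axin2, T, Lef1, Tcf7, Sp5, Dkk1, Nkd1, Lgr5 and Ctnnb1 are genes of canonical Wnt signalling: a ligand, its nuclear effectors and genes that the pathway is known to switch on. They were chosen by symbol, and for a symbol with several rows the row with the highest mean was taken. Of these 10 genes, 8 had a row among the 22883 rows of the expression table. Lef1 and Lgr5 were not analysed here.

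The study measured RNA in mouse embryonic stem cells that carry a conditional knockout of Exosc3, a structural subunit of the RNA exosome, the complex that degrades and trims RNA from its 3′ end. The cells are Exosc3 CKO clones of V6.5, an embryonic stem cell line, grown without feeder cells in 0.1 µg/ml doxycycline. In the Exosc3-present group (2 libraries) doxycycline was kept, and in the Exosc3-depleted group (2 libraries) it was withdrawn for 3 days. Doxycycline and Exosc3 therefore change together and cannot be told apart. The labels do not say how many clones were used, nor that the 2 libraries of a group came from separate cultures, so p-values measure the spread between these libraries, which may be technical. Total RNA with a RIN score of 8.5 or better was depleted of ribosomal RNA and sequenced as stranded paired-end libraries. Levels are FPKM, fragments per kilobase of gene model, scaled to the total fragments of the library, and can be compared between genes because they are set per length.

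Exosc3 itself stood at 24.2 and 23.2 FPKM in the Exosc3-present libraries and at 0.635 and 0.691 FPKM in the depleted libraries, in the direction the labels give; which part of the gene is deleted is not given in the sources used here. The present libraries were the deeper ones: by the spacing of the values, each fragment added 0.0164 and 0.0181 FPKM to a 1 kb gene model there, and 0.0263 and 0.0238 FPKM in the depleted libraries. The depleted libraries were more unlike each other, with an SD of the log2 difference of 0.43 against 0.19 in the present pair. Limma on log2(FPKM + 0.5) called 42.7% of the 9336 rows with a mean of at least 0.5 FPKM, 12.6% higher and 30.1% lower in depleted cells. The median row moved by -0.27 on this log2 scale. With the libraries scaled by the median of ratios the median was 0.0065, and 1756 rows were higher and 1589 lower, against 1177 and 2806 without that scaling. A fall of about the size of the median therefore depends on the scaling, and the falls given with full values below carry their value under it.

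Wnt ligands are secreted, lipid-modified proteins that bind Frizzled receptors together with Lrp5 or Lrp6. Binding holds back a cytoplasmic complex, built on Axin, that otherwise marks beta-catenin for degradation; beta-catenin then enters the nucleus and acts with transcription factors of the TCF/LEF family. Axin2, Nkd1, Dkk1 and Notum are known targets that act back on the pathway as inhibitors. In mouse embryonic stem cells the pathway is known to favour self-renewal, and in the early embryo Wnt3 is needed for the primitive streak, where T is a target.

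The stretches just upstream of 4 member genes that changed are printed here, because 2 of these genes (Sp5, Wnt3) rose and 2 (Axin2, Nkd1) fell. The sequences are RefSeq's, build GRCm38.p6, read 5′ to 3′ on the gene's own strand, and annotated exon bases are left out of the upstream stretches. Capitals mark a match to CTTTGAT or CTTTGAA, the core that TCF/LEF factors are known to prefer. Both strands were searched, over the 250 bases before the start site.
Sp5 (chr2:70474673-70474922, plus strand): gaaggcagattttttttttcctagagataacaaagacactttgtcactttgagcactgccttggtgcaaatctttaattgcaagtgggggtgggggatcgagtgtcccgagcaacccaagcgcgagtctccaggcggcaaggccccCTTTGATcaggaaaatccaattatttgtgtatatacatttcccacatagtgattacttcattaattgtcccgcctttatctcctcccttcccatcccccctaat
Wnt3 (chr11:103773925-103774149, plus strand): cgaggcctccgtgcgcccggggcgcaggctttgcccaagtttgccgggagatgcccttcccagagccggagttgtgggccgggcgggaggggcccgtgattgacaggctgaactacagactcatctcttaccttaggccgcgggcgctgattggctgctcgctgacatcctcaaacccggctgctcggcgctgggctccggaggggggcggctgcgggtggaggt
Axin2 (chr11:108920099-108920348, plus strand): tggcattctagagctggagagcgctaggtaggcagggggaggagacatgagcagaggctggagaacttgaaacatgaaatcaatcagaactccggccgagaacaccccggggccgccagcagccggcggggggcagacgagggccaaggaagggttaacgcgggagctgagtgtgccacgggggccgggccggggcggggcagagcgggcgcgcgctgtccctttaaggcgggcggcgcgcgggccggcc
Nkd1 (chr8:88527383-88527632, plus strand): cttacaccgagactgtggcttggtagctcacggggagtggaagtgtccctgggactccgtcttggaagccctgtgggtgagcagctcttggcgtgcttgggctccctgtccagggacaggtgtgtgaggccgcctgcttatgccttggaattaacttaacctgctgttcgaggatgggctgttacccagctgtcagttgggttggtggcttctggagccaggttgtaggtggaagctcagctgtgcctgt
For Dkk1 and T, which also held a match, only the match with its flanks is shown; that of Dkk1 lies in bases that GENCODE annotates as exon.
Dkk1 (chr19:30549596-30549624, minus strand): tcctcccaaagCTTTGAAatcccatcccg
T (chr17:8434177-8434205, plus strand): ctgctcggtacTTCAAAGggtgtcccgcc

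The Sp5 match lies 104 to 98 bases before the start site, the Dkk1 match 117 to 111 bases before it and the T match, on the other strand, 235 to 229 bases before it. No match was found in the windows of Wnt3, Axin2, Nkd1, Tcf7 and Ctnnb1, which says only that these letters are not in these windows. A match occurred in 2457 of 32851 RefSeq promoter windows of the same length, or 7.48%. The Wnt3 and Axin2 windows were 68.0% and 69.2% G and C, and the Sp5 window 46.0%, beside a median of 52.4% over all windows. A window with a match thus belonged to a gene that rose (Sp5), to one that rose only in the test without a filter (Dkk1) and to one that was not called (T).

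Of the 8 genes, 6 had a mean of at least 0.5 FPKM; Wnt3 and Sp5 rose, Axin2 and Nkd1 fell, and Tcf7 and Ctnnb1 did not pass the test. Wnt3 and Sp5 reached that mean only through the depleted libraries, so their passing the filter already required a difference. In the fit with no filter, over all 15471 rows above 0 in at least 1 library, 3 of 8 rose (Wnt3, Sp5, Dkk1) and 2 fell (Axin2, Nkd1), where 11.3% of all rows rose and 18.7% fell. Without regard to the test, both depleted libraries lay above both present ones for 3 of the 8 genes and below them for 3 (Axin2, Nkd1, Tcf7), where 25.5% and 40.3% of all rows did so. Of the known targets called, Sp5 and Dkk1 rose and Axin2 and Nkd1 fell. In bulk RNA, fewer cells of a type and less RNA per cell cannot be told apart.

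**Figure D1:**
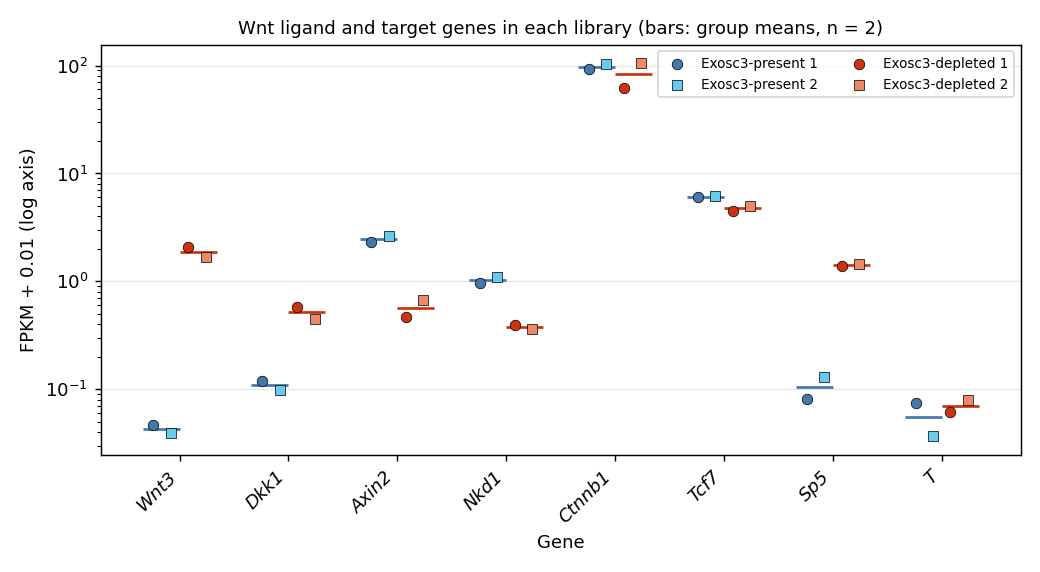
FPKM + 0.01 (log axis) of the 8 genes in each library, Exosc3-present in blue and Exosc3-depleted in red, with bars at the group means (n = 2). Wnt3, Sp5 and Dkk1 lie higher in both depleted libraries, Axin2, Nkd1 and Tcf7 lower, and the groups overlap for Ctnnb1 and T.

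Wnt3 (uc007lvs.2), the ligand of the set, was at 0.0369 and 0.0291 FPKM in the Exosc3-present libraries and at 2.06 and 1.67 FPKM in the depleted libraries. Both present libraries were near zero, with 7 and 5 fragments on the whole gene model, against 244 and 218 fragments in the depleted ones. The mean went from 0.0330 ± 0.00556 to 1.86 ± 0.275 FPKM (SD, n = 2), or 56.4-fold. On the log2(FPKM + 0.5) scale, which holds back low genes, the rise was 2.14 (SE 0.16, limma adjusted p = 0.000292). Wnt3 passed the filter of 0.5 FPKM only through the depleted libraries, and in the fit with no filter its limma adjusted p was 0.00478. Wnt3 moved from percentile 46.0 and 45.1 of all rows in the present libraries to 73.7 and 69.1 in the depleted ones.

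Sp5 (uc008jzg.1), a zinc finger transcription factor and a direct Wnt target in many tissues, was at 0.0705 and 0.121 FPKM in the present libraries and at 1.36 and 1.43 FPKM in the depleted ones. Here the depleted pair was the tighter of the 2 pairs in relative terms, and no library lay between the groups. The mean rose 14.6-fold, from 0.0957 ± 0.0356 to 1.40 ± 0.0476 FPKM (SD, n = 2), on 9 and 14 fragments against 109 and 126. The log2 rise was 1.67 (SE 0.15, limma adjusted p = 0.000449). Sp5 too passed the filter only through the depleted libraries, and with no filter its limma adjusted p was 0.00478.

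Dkk1 (uc008hen.1), a secreted inhibitor that blocks the co-receptors Lrp5 and Lrp6, was at 0.110 and 0.0890 FPKM in the present libraries and at 0.575 and 0.437 FPKM in the depleted ones. The groups did not overlap, and the ratio of the means was 5.08-fold, on 15 and 11 fragments against 49 and 41. Its mean lay under the filter, and in the fit with no filter it rose by 0.74 on the log2 scale (SE 0.10, limma adjusted p = 0.00909). That call rests on both present libraries: without the first the adjusted p was 0.170 and without the second 0.192, in fits that called none of the 15471 rows.

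Axin2 (uc007mbu.2) is a scaffold of the complex that degrades beta-catenin and the most widely used readout of canonical Wnt signalling. It was at 2.29 and 2.63 FPKM in the present libraries and at 0.456 and 0.660 FPKM in the depleted ones. All values of the depleted pair lay under the present pair, on 594 and 618 fragments against 74 and 118. The mean fell from 2.46 ± 0.237 to 0.558 ± 0.144 FPKM (SD, n = 2), 4.41-fold lower. The log2 change was -1.49 (SE 0.19, limma adjusted p = 0.00132), and -1.28 with median-of-ratios scaling.

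Nkd1 (uc009mro.2), which binds Dishevelled and damps the pathway, was at 0.956 and 1.10 FPKM in the present libraries and at 0.383 and 0.353 FPKM in the depleted ones. The mean was 2.78-fold lower in depleted cells, at 0.368 ± 0.0211 against 1.03 ± 0.0984 FPKM (SD, n = 2), with 251 and 261 fragments against 63 and 64. The log2 change was -0.81 (SE 0.15, limma adjusted p = 0.00601), and -0.63 with median-of-ratios scaling. Without present replicate 2 the adjusted p was 0.0728. Nkd1 and Axin2, both inhibitors and both known targets, thus fell in the depleted libraries, where Sp5 rose.

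The split among targets can be read within each library. Sp5 had 0.0308 and 0.0460 times the FPKM of Axin2 in the present libraries, and 2.99 and 2.17 times in the depleted ones. Axin2 was the higher of these 2 targets in both present libraries and the lower in both depleted ones. A ratio within a library does not depend on the scaling between libraries, but it shows only that the 2 genes changed unequally.

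Ctnnb1 (uc009scu.2) encodes beta-catenin, the transducer of the pathway and a part of adherens junctions. It stood at 92.8 and 103 FPKM in the present libraries and at 62.0 and 105 FPKM in the depleted ones, about percentile 98 of all rows. Depleted replicate 1 was the lowest and depleted replicate 2 the highest of the 4, so the groups overlapped. The log2 difference was -0.27 (SE 0.26, limma adjusted p = 0.425), on 8558 or more fragments in every library. Without depleted replicate 1 the difference was 0.10 (adjusted p = 0.562) and without depleted replicate 2 it was -0.65 (adjusted p = 0.00222), and it was 0.04 with median-of-ratios scaling: no direction can be given for Ctnnb1.

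Tcf7 (uc007ivj.1), the TCF/LEF factor of the set, was at 6.06 and 6.12 FPKM in the present libraries and at 4.48 and 4.98 FPKM in the depleted ones. The groups did not overlap, but the log2 difference of -0.33 (SE 0.18, limma adjusted p = 0.178) was close to that of the median row and was -0.04 with median-of-ratios scaling. Without depleted replicate 2 the adjusted p was 0.0239.

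T (uc008ajq.1), or brachyury, a T-box factor of the primitive streak, was at 0.0643 and 0.0265 FPKM in the present libraries and at 0.0513 and 0.0699 FPKM in the depleted ones. These values rest on 8, 3, 4 and 6 fragments, the groups overlapped, and a difference was not detectable at this depth. In the fit with no filter its log2 difference was 0.04 (limma adjusted p = 0.567), and without present replicate 2 it turned to -0.01. In the depleted libraries, where Wnt3 had 244 and 218 fragments, T, a target of Wnt signalling in the streak, thus had 4 and 6.

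In order of level, Ctnnb1 and Tcf7 came first in every library. Axin2 and Nkd1 followed in the present libraries, with Wnt3, Sp5, Dkk1 and T all at 0.121 FPKM or less, where the values of Sp5 and Dkk1 overlapped and so did those of Wnt3 and T. In the depleted libraries Wnt3 and Sp5 came next after Ctnnb1 and Tcf7, and Axin2, Dkk1 and Nkd1 lay between 0.353 and 0.660 FPKM, where the values of Axin2 and Dkk1 overlapped.

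Wnt3 was not alone among ligands. Of 19 Wnt ligand genes 18 had a row, and Wnt1 was listed at 0 in all 4 libraries. In the fit with no filter 11 of the other 17 rose and 0 fell, beside 11.3% of all rows that rose; the ligands' median log2 change was 0.40, and that of all rows -0.04. At unadjusted p under 0.05, 11 were higher, where 6617 of the 15471 rows passed in either direction. The count of 11 was 9 with quantile normalization and 7 without the intensity trend of limma, and it was 0 when either present library was left out, in fits that called no row at all. All 7 ligands with a mean of at least 0.5 FPKM (Wnt3, Wnt4, Wnt6, Wnt7b, Wnt8a, Wnt9a, Wnt10a) rose, but each passed that filter only through the depleted libraries. The others called with no filter were low genes: Wnt5a, Wnt8b, Wnt9b and Wnt10b had depleted means of 0.444, 0.182, 0.0689 and 0.0835 FPKM. Each had 11 or fewer fragments in either present library.

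Wnt8a, a ligand of the gastrulating embryo, was at 0.216 and 0.227 FPKM in the present and 3.70 and 3.84 FPKM in the depleted libraries. It was the highest ligand in both depleted libraries, 17.0-fold above the present mean (log2 change 2.57, SE 0.16, limma adjusted p = 0.000208). Wnt4, which is needed for kidney tubules and the female gonad, went from 0.344 ± 0.0207 to 3.24 ± 0.575 FPKM (SD, n = 2; log2 change 2.14, SE 0.18, limma adjusted p = 0.000408). Wnt6 went from 0.462 ± 0.00961 to 3.07 ± 0.535 FPKM (log2 change 1.89, SE 0.18, limma adjusted p = 0.000597). These 3 ligands and Wnt3 were the 4 highest in both depleted libraries. In the fit with no filter the limma adjusted p was 0.00478 for Wnt8a, 0.00518 for Wnt4 and 0.00624 for Wnt6.

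Wnt10a, the RefSeq neighbour of Wnt6, went from a mean of 0.0751 to 1.54 FPKM. Wnt9b, the neighbour of Wnt3, had like Wnt3 only 7 and 5 fragments in the present libraries; it rose with no filter (limma adjusted p = 0.0428), from 0.0227 to 0.0689 FPKM, and in depleted cells lay far below the 1.86 FPKM of Wnt3. Wnt3a, the closest relative of Wnt3 and the ligand most used to culture stem cells, had 0.173 and 0.151 FPKM in the present and 0.124 and 0.130 FPKM in the depleted libraries, and was not called (limma adjusted p = 0.279), whereas its neighbour Wnt9a rose from 0.326 to 1.14 FPKM. Neighbouring ligand genes thus did not all change by like amounts.

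Summed over the 18 ligands, the level was 2.25 and 2.30 FPKM in the present libraries and 18.8 and 15.9 FPKM in the depleted ones, 7.62-fold higher. With 2 libraries a group, an exact permutation test (two-sided) gave p = 0.333, the smallest the design allows. The share of Wnt3 in that sum was 1.64% and 1.26% in the present and 11.0% and 10.5% in the depleted libraries, while the share of Wnt3a went from 7.70% and 6.59% to 0.661% and 0.818%. In depleted cells Wnt8a, Wnt4 and Wnt6 lay above the 2.46 FPKM that Axin2 had in present cells, and Wnt3 lay below it.

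**Figure D2:**
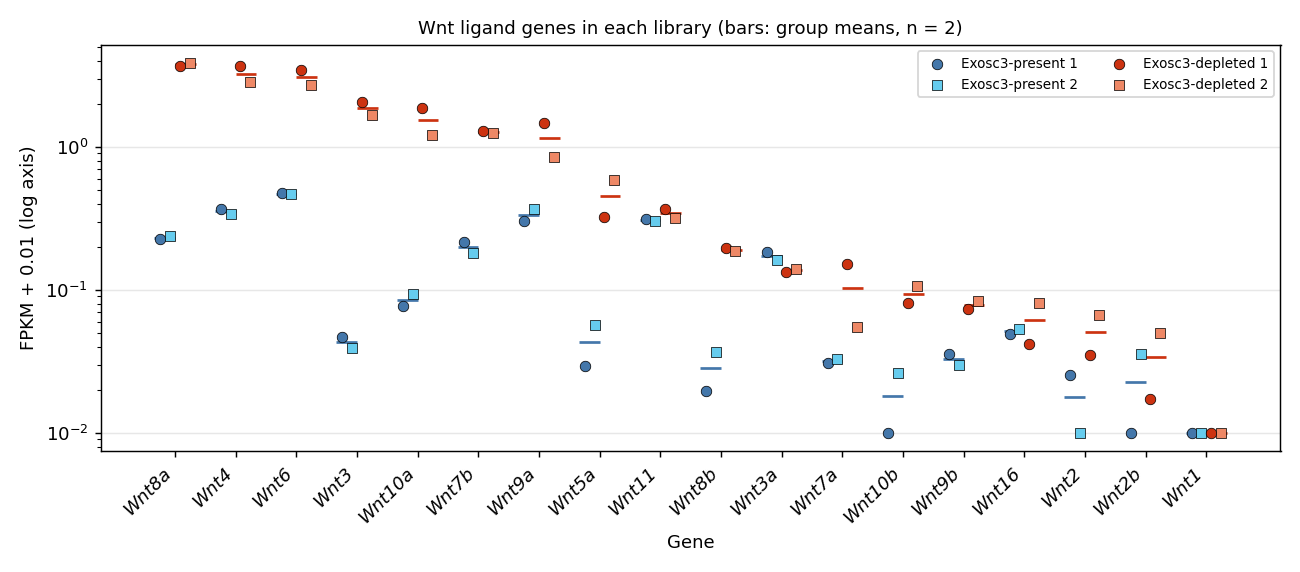
FPKM + 0.01 (log axis) of the 18 Wnt ligand genes with a row in each library, with bars at the group means (n = 2), ordered by the depleted mean. Wnt8a, Wnt4, Wnt6 and Wnt3 are highest in the depleted libraries, while Wnt11 and Wnt3a stay within 0.124 to 0.358 FPKM in all 4 libraries.

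Genes that load, carry or trim Wnt ligands moved both ways: of 5 tested, Gpc4 and Wls rose and Notum fell, where 12.6% of all rows rose and 30.1% fell. Gpc4, a glypican that holds Wnt proteins at the cell surface, went from 3.30 ± 0.116 to 12.4 ± 0.946 FPKM (SD, n = 2; log2 change 1.76, SE 0.18, limma adjusted p = 0.000694). Wls, the carrier that takes Wnt proteins to the surface, went from 0.812 ± 0.192 to 1.63 ± 0.513 FPKM (limma adjusted p = 0.0441); the adjusted p was 0.101 in the fit with no filter, 0.337 without present replicate 1 and 0.107 without present replicate 2. Notum, a secreted enzyme that removes the lipid from Wnt proteins and is itself a target, fell from 4.05 ± 0.242 to 1.47 ± 0.179 FPKM (log2 change -1.21, SE 0.19, limma adjusted p = 0.00282), and its log2 change was -0.95 with median-of-ratios scaling. Porcn, the enzyme that adds the lipid, was at 8.65 and 6.94 FPKM in the present and depleted means and was not called (limma adjusted p = 0.257). Tmed5, of a family that carries cargo out of the endoplasmic reticulum, was at 0.574 and 0.531 FPKM in the present and 0.812 and 1.45 FPKM in the depleted libraries. It was not called (limma adjusted p = 0.0603), but passed with median-of-ratios scaling (0.0113) and with quantile normalization (0.0354). Its log2 change was 0.61, and it was 0.89 without depleted replicate 1 and 0.32 without depleted replicate 2.

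Among receptors the balance between Frizzled genes shifted. Of 11 receptor genes tested, Fzd8 and Fzd10 rose and Fzd5, Fzd9, Lrp5, Ror2 and Ryk fell, where 12.6% and 30.1% of all rows did. Under each of the 3 other scalings 2 rose and 2 fell, where 1544 to 1756 of the 9336 rows rose and 1330 to 1782 fell. Fzd5 was at 9.20 and 9.95 FPKM in the present and 2.62 and 3.63 FPKM in the depleted libraries (log2 change -1.49, SE 0.21, limma adjusted p = 0.00207; -1.20 with median-of-ratios scaling). Fzd10 was at 3.20 and 3.45 FPKM in the present and 6.54 and 6.24 FPKM in the depleted libraries (log2 change 0.85, SE 0.18, limma adjusted p = 0.00956). Of the summed FPKM of the 10 Frizzled genes, Fzd5 held 33.5% and 34.5% in the present and 13.5% and 16.3% in the depleted libraries, and Fzd10 11.6% and 12.0% against 33.7% and 28.0%. Fzd7 was the other main Frizzled gene, with 27.8% to 33.2% in all 4 libraries; its level was not called (limma adjusted p = 0.0691) but passed the test without depleted replicate 1 (0.0482) or 2 (0.000762). The calls of Lrp5, Ror2 and Ryk were lost with median-of-ratios scaling (adjusted p = 0.148, 0.101 and 0.220), and those of Lrp5, Ror2, Ryk, Fzd8 and Fzd10 without either present library (0.139 to 0.370); that of Fzd9 was lost without present replicate 1 (0.0676).

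R-spondins bind Lgr receptors and protect Frizzled proteins from the ubiquitin ligase Znrf3. Of 3 such genes tested Rspo1 fell, from 1.35 ± 0.145 to 0.800 ± 0.0836 FPKM (limma adjusted p = 0.0470), where 30.1% of all rows fell. That call was lost with median-of-ratios scaling (adjusted p = 0.232), with no filter (0.0840) and with quantile normalization (0.0928). It was also lost with a pseudocount of 0.1 (0.0541), without the intensity trend (0.0531) and when scaled without the 50 highest rows (0.232). The log2 change of Rspo1 was -0.51, and it was -0.59 without present replicate 1 and -0.43 without present replicate 2. Lgr4, the receptor with the highest mean of this list, was at 4.41 and 4.78 FPKM in the present and 2.37 and 4.59 FPKM in the depleted libraries, and was not called. Without depleted replicate 2, Lgr4 and Znrf3 passed the test.

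The largest fall among the pathway genes tested was that of a secreted inhibitor. Sfrp1, a decoy that binds Wnt proteins outside the cell, was at 8.85 and 10.4 FPKM in the present and 0.546 and 0.872 FPKM in the depleted libraries. It was 13.6-fold lower (log2 change -3.07, SE 0.21, limma adjusted p = 0.000266; -2.83 with median-of-ratios scaling). Kremen2, a co-receptor of Dkk1, was at 0.796 and 0.567 FPKM in the group means and was not called (limma adjusted p = 0.235); it passed without depleted replicate 1. In the fit with no filter, of 12 inhibitor genes Sfrp1 and Sfrp5 fell and Dkk1 rose, where 18.7% of all rows fell and 11.3% rose. Dkk1 had 0.0125 and 0.00858 times the FPKM of Sfrp1 in the present and 1.05 and 0.501 times in the depleted libraries, so the 2 inhibitors reached like levels from opposite sides.

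Of 23 cytoplasmic genes listed 15 had a row, and Apc, Gsk3a, Gsk3b, Csnk1a1, Dvl1 and Dvl2 were among those without one. Of the 15 tested, 6 fell: Axin2, Nkd1, their relatives Axin1 and Nkd2, the kinase gene Csnk1e and the ubiquitin ligase gene Btrc. Dvl3, a Dishevelled gene, rose, where 30.1% of all rows fell and 12.6% rose. With median-of-ratios scaling 4 fell and 3 rose, where 1589 and 1756 of the 9336 rows did. Axin1 fell from 13.7 ± 0.425 to 8.11 ± 0.534 FPKM (SD, n = 2; log2 change -0.72, SE 0.17, limma adjusted p = 0.0156; -0.42 with median-of-ratios scaling), less than Axin2. Csnk1g2, a casein kinase gene, was at 45.9 and 33.2 FPKM in the group means and was not called (limma adjusted p = 0.0964), but passed without depleted replicate 1 (0.00132). Without either present library the calls of Axin1, Nkd2, Csnk1e, Btrc and Dvl3 were lost (adjusted p = 0.0523 to 0.456), and with median-of-ratios scaling those of Axin1 and Btrc (0.128 and 0.219). Of 18 nuclear genes listed 14 had a row, and Lef1, Tcf7l1 and Tcf7l2 had none under these symbols. Rows under Tcf3 and Tcf4, synonyms of Tcf7l1 and Tcf7l2, were not used, as these symbols may also stand for other genes. Of 12 nuclear genes tested 6 fell and 0 rose, where 30.1% of all rows fell and 12.6% rose. Among those that fell were Aes, Tle1, Tle3 and Tle6 (of the Groucho family). The others were Bcl9 (a coactivator that binds beta-catenin) and Ctnnbip1 (an inhibitor that binds beta-catenin). With median-of-ratios scaling 4 fell and 2 rose, where 1589 and 1756 of the 9336 rows did. Aes fell from 92.5 ± 0.345 to 34.3 ± 3.54 FPKM (log2 change -1.42, SE 0.17, limma adjusted p = 0.00108; -1.10 with median-of-ratios scaling), and Bcl9 from 1.38 ± 0.128 to 0.325 ± 0.141 FPKM (log2 change -1.19, SE 0.18, limma adjusted p = 0.00268; -1.02 with median-of-ratios scaling). The calls of Tle1 and Tle3 were lost with median-of-ratios scaling (adjusted p = 0.0805 and 0.148) and without either present library (0.192 to 0.268), and that of Ctnnbip1 without present replicate 2 (0.0917). The nuclear list's median was -0.63, beside -0.27 for all rows tested. A coactivator gene (Bcl9) and the corepressor genes Tle1 and Tle3 were among those that fell.

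Of 15 known Wnt targets tested, 5 rose (Sp5, Ascl2, Id2, Sox4, Tcfap2c) and 7 fell (Axin2, Nkd1, Nkd2, Notum, Cdx1, Tbx3, Myc), and Tcf7, Ccnd1 and Znrf3 were not called, where 12.6% of all rows rose and 30.1% fell. The call of Ascl2 was lost with no filter (adjusted p = 0.0725) and with quantile normalization (0.0501). Sp5 is the 1 of these 15 that passed the filter only through the depleted libraries. Id2, an inhibitor of basic helix-loop-helix factors, went from 1.58 ± 0.118 to 6.26 ± 0.683 FPKM (SD, n = 2; log2 change 1.70, SE 0.19, limma adjusted p = 0.000915). Tbx3, a T-box factor of the stem cell network, fell from 15.0 ± 0.209 to 5.47 ± 1.13 FPKM (log2 change -1.39, SE 0.20, limma adjusted p = 0.00227). With median-of-ratios scaling its log2 change was -1.09. With no filter 7 of 22 targets rose and 7 fell, where 11.3% and 18.7% of all rows did, so the targets as a list had no single direction. Without either present library the calls of Ascl2, Sox4, Tcfap2c, Nkd2 and Myc were lost (adjusted p = 0.0568 to 0.369).

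**Figure D3:**
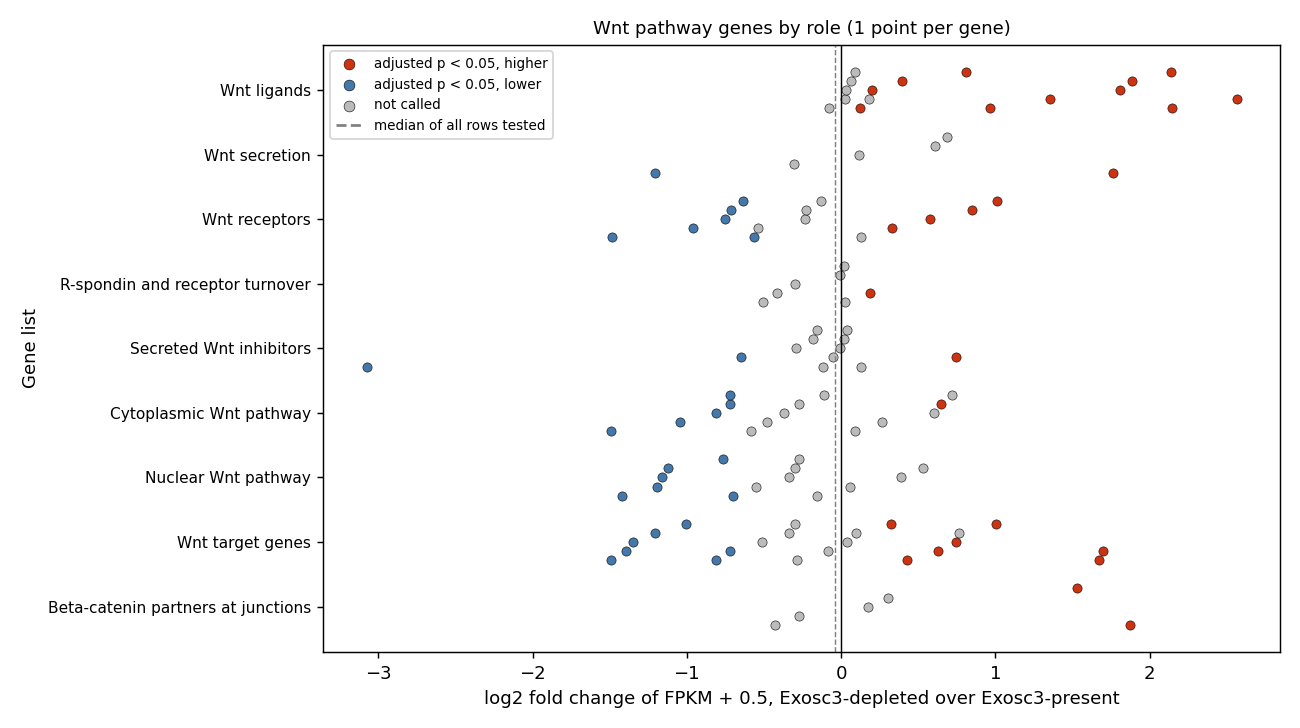
Log2 fold change of FPKM + 0.5 (Exosc3-depleted over Exosc3-present, fit with no filter) for each gene of the 9 lists, red and blue for genes called higher and lower, gray for genes not called, and the dashed line at the median of all rows (-0.04). The ligands hold 11 red and 0 blue points, the nuclear list 6 blue and 0 red, and the targets 7 of each. Of all rows in that fit, 11.3% were called higher and 18.7% lower.

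Beta-catenin also binds cadherins at junctions. Of 6 such genes tested, Cdh2 and Cdh3 rose and 0 fell, where 12.6% and 30.1% of all rows did. Cdh2 passed the filter only through the depleted libraries, and with no filter its limma adjusted p was 0.00756. Cdh3, P-cadherin, was at 13.8 and 16.1 FPKM in the present and 43.5 and 44.5 FPKM in the depleted libraries (log2 change 1.53, SE 0.17, limma adjusted p = 0.000941). Cdh2, N-cadherin, was at 0.202 and 0.148 FPKM in the present and 1.57 and 2.44 FPKM in the depleted libraries (log2 change 1.87, SE 0.21, limma adjusted p = 0.000872). Cdh1, E-cadherin, had 59.6 and 66.3 FPKM against 53.9 and 93.4 FPKM, and like Ctnnb1 was low in depleted replicate 1 and high in depleted replicate 2; it was not called (limma adjusted p = 0.627), but passed the test without depleted replicate 1 (adjusted p = 0.00593). Jup, or plakoglobin, at 20.8 and 25.9 FPKM in the group means, and Ctnnd1, or p120-catenin, at 19.1 and 14.6 FPKM, were not called (limma adjusted p = 0.216 and 0.238); without depleted replicate 2 both passed, Jup higher and Ctnnd1 lower (0.0144 and 0.000623).

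Over the pathway genes other than the 10 first named, 17 of 63 tested rose and 21 fell, where 12.6% and 30.1% of all rows did. Only 56 of the 63 had a mean of at least 0.5 FPKM in the present libraries. The others, ligands and Cdh2, passed the filter only through the depleted libraries, and all of them rose. With the filter applied to present libraries alone, 10 rose and 20 fell, in a fit that called 3755 rows in either direction. With no filter 24 of 97 rose and 21 fell, where 11.3% and 18.7% of all rows did. With median-of-ratios scaling 22 of the 63 rose and 13 fell, where 1756 and 1589 of the 9336 rows did. Without present replicate 1 or 2 fewer of the 63 were called, and fewer of all rows. The ligands gave 6 of the 17 and 10 of the 24 genes that rose.

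**Figure D4:**
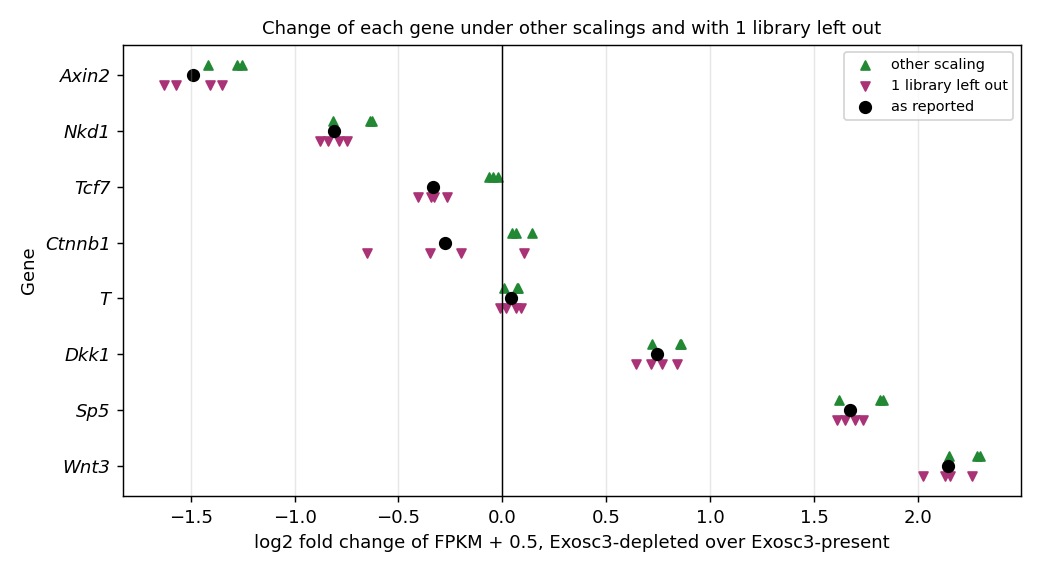
Log2 fold change of FPKM + 0.5 (Exosc3-depleted over Exosc3-present) of the 8 genes as reported (black), under 3 other scalings of the libraries (green) and with 1 library left out (purple). Axin2, Nkd1, Dkk1, Sp5 and Wnt3 stay on their side of 0 under all of these, while the sign of Ctnnb1 and of T does not.

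Markers of the cells moved with these genes, and their part in the results was not tested. Marker counts are from the fit with no filter, where 11.3% of all rows rose and 18.7% fell. Of 6 embryonic stem cell markers with a row 5 fell, and their summed level went from 3015 and 3021 FPKM to 1883 and 1239 FPKM; Pou5f1, at 471 and 434 FPKM against 413 and 286 FPKM, was not called (limma adjusted p = 0.243). Of 6 trophectoderm markers 4 rose, and the sum went from 22.3 and 24.3 FPKM to 119 and 88.0 FPKM, most of it the keratin genes Krt8 (10.5 against 54.2 FPKM in the means) and Krt18 (11.9 against 48.5 FPKM). Tfap2c, also a trophectoderm marker, has its row under the older symbol Tcfap2c and is in neither this count nor this sum; it rose from 10.6 to 16.6 FPKM. Of the 6 trophectoderm markers counted, Eomes and Elf5 lay lower in both depleted libraries and were not called in this fit. Of 7 primitive endoderm markers 4 rose, with sums of 2.71 and 2.46 FPKM against 5.90 and 6.71 FPKM. Of 4 neural markers 2 rose and 1 fell, with sums of 82.8 and 79.3 FPKM against 35.2 and 37.5 FPKM. The sum followed Tubb3, which fell from a mean of 79.1 to 21.5 FPKM, while Nes rose from 1.58 to 10.1 FPKM and Neurod1 from 0.256 to 4.72 FPKM. Of 9 primitive streak markers, T among them, 2 rose (Foxa2 and Lhx1) and 0 fell. Foxa2 is also counted above among the primitive endoderm markers that rose, and Lhx1 was at 0 FPKM in both present libraries. Without regard to the test, 2 lay higher in both depleted libraries and 4 lower, where 25.5% and 40.3% of all rows did. The sums were 1.72 and 1.47 FPKM against 1.23 and 1.27 FPKM. Eomes, the only one of the 9 with a mean of at least 0.5 FPKM, fell in the filtered fit (0.811 to 0.379 FPKM, limma adjusted p = 0.0426). Fibroblast markers, looked at because stem cells are often grown on fibroblast feeders, summed to 7.13 and 7.92 FPKM against 12.0 and 9.00 FPKM, with 2 of 7 higher and 2 lower, and Lum, Dcn and Postn were listed at 0 in all libraries.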

How the data were processed

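RNA was measured in 4 libraries of mouse embryonic stem cells, 2 per group by their titles. Per the file headers, the authors deposited 1 table of FPKM values by UCSC gene model. Bowtie2, STAR, Picard, edgeR, bedtools and the build mm9 are named in the submitters' processing notes, and the role of each is not given in the sources used here.

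Values were tested as log2(FPKM + 0.5) with limma 3.58.1 under R 4.3.3, with its intensity trend and no other term. Only the 9336 rows whose mean reached 0.5 FPKM entered. Log2 changes on that scale understate the change of low genes. Two-sided p-values were adjusted over all rows by Benjamini-Hochberg, and 0.05 was the threshold. A value given as N-fold is a ratio of mean FPKM. Genes under the filter come from the fit with no filter (15471 rows).

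Fragment numbers were recovered from the spacing of the FPKM values: all 15471 rows came out whole within 0.004 of a fragment. They rest on the shortest model length that fitted, which was raised by a whole multiple (at most 4) where a GENCODE transcript length lay within 1%. They entered only limma-voom, an alternative chosen after seeing the data.

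The members, the 9 pathway lists and the markers were chosen with earlier results of these data known. Named beside the members were, per list, the 4 tested genes with the smallest p and the 2 with the highest mean. Others (among them Wnt3a, Wnt9a, Wnt9b, Wnt10a, Axin1, Fzd7, Fzd8, Sfrp5, Myc and genes listed to fill a count) were named after their values were seen.

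Other pseudocounts, filters, scalings and variance models, the replicate block and leaving out each library were tried. Genome coordinates are RefSeq's, not the files' build.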

Additional observations from a re-analysis of the deposited data

How the results depend on the processing

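Of the 8 genes, Wnt3, Sp5 and Axin2 kept their direction under every alternative that tested them, and their call in every fit that was limited to rows of at least 0.5 FPKM. With no filter and either present library left out, no row was called (lowest adjusted p 0.166 and 0.177). The 3983 rows called ranged from 1750 to 6334 with 1 library left out. The counts of genes higher and lower (2 and 2) were 0 and 0 with a mean of at least 2 FPKM, because none of the 4 called genes was then tested; with the filter applied to present libraries alone, 0 were higher. With 1 library left out, 2 were higher each time and 1 to 4 lower. For the other pathway genes the 17 higher became 7 with a mean of at least 2 FPKM, 10 with the present-only filter and 10 to 25 with 1 library left out. The 21 lower became 13 with median of ratios, 13 with quantile normalization, 11 when scaled without the 50 highest rows and 9 to 29 with 1 library left out; the rows called higher were then 1756, 1578 and 1544 against 1177, and those lower 1589, 1782 and 1330 against 2806. The 7 ligands higher were 0 and 0 under the filters at 2 FPKM and on present libraries, which no ligand passes, and 11 with no filter; those 11 were 7 without the intensity trend and 0 to 11 with 1 library left out.

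Signs turned for 6 genes that were not called. T ranged from -0.0096 (without present replicate 2) to 0.090 with 1 library left out. Ctnnb1 was 0.044 with median of ratios, 0.143 with quantile normalization and 0.068 without the 50 highest rows, and -0.65 to 0.10 with 1 library left out. Ccnd1 was 0.025, 0.029 and 0.048 under these 3 scalings, Porcn 0.014 under the last, and Sfrp4 0.046 and 0.066 under the first and last. Cdh1 was -0.22 to 0.57 with 1 library left out.

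Same-numbered libraries deviated together with a correlation of 0.24, but 2 pairs are too few to show pairing. With the replicate block 4899 rows were called, 2 of the 8 genes were higher and 2 lower, and 21 other pathway genes were higher and 24 lower. Voom on recovered fragments called 3928 rows and gave Wnt3 a change of 5.70, Sp5 3.87 and Axin2 -2.15.

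With 2 libraries a group and 3 to 15 fragments on T, Wnt3, Sp5 and Dkk1 in present cells, their levels there are imprecise.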
